A study of Mus musculus with 12 samples.

Results

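CTCF binding was examined at 9 mouse genes that encode the energy sensor AMPK and the kinases that switch it on, out of 49997 RefSeq genes with a position. They are the 7 genes of the AMPK subunits (Prkaa1, Prkaa2, Prkab1, Prkab2, Prkag1, Prkag2 and Prkag3) and the kinase genes Stk11 and Camkk2. Peaks of 6 liver libraries were joined where they shared at least 1 bp, which gave 76061 sites, and 91 of these overlapped the body of a listed gene or the 20 kb on either side of it. No site was shared between the windows of any 2 of the genes. The genes were chosen with the peak calls of these libraries known, among them a site inside Prkag1 with no starved peak, so starved and fed values at the genes are given as descriptions without a test.

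The libraries were CTCF chromatin immunoprecipitations (ChIP-seq) from whole livers of wild-type male C57BL6/Ncrl mice, 3 to 4 months old, kept with 12 h of light per day on normal chow. The starved group (3 libraries) had been without food for 24 h and was collected at ZT13, where ZT is zeitgeber time in hours after lights on. The fed group (3 libraries) ate freely and was collected at ZT16, so feeding and collection time cannot be told apart. Input libraries of both groups were not analysed here. The peak lists carry no expression values, so the tissue label was not checked against marker genes. Whole liver mixes cell types, and binding in fewer cells cannot be told apart from weaker binding in each cell. Separate mice for the replicate libraries are not stated in the labels, so the spread within a group may be technical.

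AMPK is a trimer of a catalytic alpha subunit, a beta subunit that acts as scaffold and binds glycogen, and a gamma subunit that binds AMP, ADP and ATP. It is active when a kinase, LKB1 (encoded by Stk11) or CaMKK2 (encoded by Camkk2), phosphorylates the alpha subunit, and a rise in AMP protects that phosphate. In the liver, active AMPK is known for restraining fatty acid and sterol synthesis and for promoting fat oxidation and autophagy. CTCF is a zinc finger protein that binds insulators, halts cohesin at the anchors of chromatin loops and also sits at many promoters.

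The 3 starved lists held 30752, 23926 and 29866 peaks and the 3 fed lists 56103, 49030 and 74950. The longest starved list had fewer peaks than the shortest fed list, and the number of reads behind each list is unknown. Peaks were also narrower in starved libraries, with mean widths of 261 to 389 bp in starved and 444 to 472 bp in fed lists. The value of a peak is the authors' own peak score, and it was used as a percentile rank within its list, where 100 is the best-scored peak. A rank in a short list and a rank in a long list are not on one scale, so a difference between a starved and a fed rank in the full lists measures no change. A fed site is one called in all 3 fed libraries, and a fed-only site is a fed site with no peak in any starved library.

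The start of the gene was a CTCF site in most of the AMPK genes. The promoter window of 300 bp (250 bases before to 50 after the annotated start, RefSeq, GRCm38.p6) overlapped a peak in all 6 libraries for 4 of the 9 genes, Prkaa1, Prkab1, Prkag1 and Prkag3. Over 17492 protein-coding genes with such a window, 7.15% had a promoter peak in all 6 libraries. In at least 1 library it was 7 of the 9 genes and 36.9% of all. Per library, 6, 4 and 5 of the genes had a promoter peak in starved 1, 2 and 3, and 6, 6 and 7 in fed 1, 2 and 3. Over all genes the share was lowest in starved 2, at 7.48%, and highest in fed 3, at 36.0%. The 2 genes with no promoter peak were Prkab2 and Camkk2, and Stk11 had one in fed 3 alone. The shares over all genes carry no test of the 9 genes.

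The promoter windows of the 4 genes with a peak in all 6 libraries are shown because a CTCF peak lies over each, with that of Stk11, whose best site lies just upstream. Each runs 5′ to 3′ on the strand of its gene and comes from RefSeq (GRCm38.p6). Capitals mark the letters AGNNGGC on either strand, and where CCNNN comes directly before them, those letters too. Both are parts of the CTCF consensus.
Prkaa1 (chr15:5143611-5143910, plus strand): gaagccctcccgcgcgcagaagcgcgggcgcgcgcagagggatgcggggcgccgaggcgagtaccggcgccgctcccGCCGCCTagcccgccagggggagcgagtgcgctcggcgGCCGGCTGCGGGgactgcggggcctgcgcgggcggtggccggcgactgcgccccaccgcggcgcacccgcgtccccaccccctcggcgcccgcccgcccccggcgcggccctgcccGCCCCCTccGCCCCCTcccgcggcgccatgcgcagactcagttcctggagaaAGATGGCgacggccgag
Prkab1 (chr5:116024379-116024678, minus strand): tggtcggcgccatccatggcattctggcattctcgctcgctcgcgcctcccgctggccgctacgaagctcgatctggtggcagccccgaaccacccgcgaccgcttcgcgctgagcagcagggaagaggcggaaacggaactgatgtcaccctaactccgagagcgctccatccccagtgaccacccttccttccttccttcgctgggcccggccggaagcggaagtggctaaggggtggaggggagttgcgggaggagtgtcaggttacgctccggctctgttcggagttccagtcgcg
Prkag1 (chr15:98831459-98831758, minus strand): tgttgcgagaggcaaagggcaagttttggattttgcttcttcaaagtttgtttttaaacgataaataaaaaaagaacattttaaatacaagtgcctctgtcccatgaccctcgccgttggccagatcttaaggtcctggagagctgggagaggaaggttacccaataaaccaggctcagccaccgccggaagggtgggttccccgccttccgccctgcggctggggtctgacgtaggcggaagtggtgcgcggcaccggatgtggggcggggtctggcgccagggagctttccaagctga
Prkag3 (chr1:74748906-74749205, minus strand): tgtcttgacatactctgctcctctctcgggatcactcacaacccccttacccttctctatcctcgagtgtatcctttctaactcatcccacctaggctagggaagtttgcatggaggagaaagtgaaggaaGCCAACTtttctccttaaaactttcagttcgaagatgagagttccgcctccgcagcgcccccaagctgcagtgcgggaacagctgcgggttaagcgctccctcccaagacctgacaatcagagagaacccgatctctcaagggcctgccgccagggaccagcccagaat
Stk11 (chr10:80115545-80115844, plus strand): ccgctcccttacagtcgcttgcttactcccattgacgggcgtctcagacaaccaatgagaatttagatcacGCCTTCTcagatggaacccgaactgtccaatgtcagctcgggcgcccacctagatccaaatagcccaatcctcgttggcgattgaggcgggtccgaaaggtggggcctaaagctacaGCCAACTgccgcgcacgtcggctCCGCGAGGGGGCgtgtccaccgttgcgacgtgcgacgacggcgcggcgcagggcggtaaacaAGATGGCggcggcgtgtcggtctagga

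AGNNGGC preceded directly by CCNNN occurred in the printed windows of Prkaa1 and Stk11, 1 match each, in the middle window of Prkag2, which had no peak in any library, and in 9.88% of 21263 promoter windows of protein-coding genes. Prkaa1 had 5 matches to AGNNGGC and Stk11 had 4, while Prkag3 had 1 and Prkab1 and Prkag1 had 0. Of all windows, 63.9% held at least 1. The pentamer CCCTC was present in each of the 5 windows and in 69.6% of all windows; it overlaps other matches where they share letters. The windows ranged from 54.0% G and C bases in Prkag3 to 82.0% in Prkaa1, with a median of 56.3% over all windows. A match is a description of the letters in these 300 bases and says nothing on where CTCF bound within a peak.

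Each AMPK gene had at least 3 fed sites and at least 2 sites called in all 6 libraries. Over 21887 protein-coding genes the median was 2 fed sites (quartiles 1 and 4). For sites called in all 6 libraries it was 1 (quartiles 0 and 2). Of the 91 sites, 54 were fed sites. Of these, 29 were called in all 3 starved libraries (53.7%), 14 in 1 or 2 (25.9%) and 11 in none (20.4%). Of the genome's 44909 fed sites, 49.3% had a peak in each starved library, 21.6% in 1 or 2, and 29.1% in none. The other 37 sites (40.7%, and 40.9% over the genome) were called in 1 or 2 fed libraries, 23 of them in fed 3 alone, and 1 of the 37 also had a starved peak. The best-ranked site of each of the 9 genes was called in all 6 libraries. Their mean fed ranks ran from 81.3 (Prkaa1) to 97.3 (Stk11). Of the genome's fed sites with a mean fed rank above 70, 99.1% had a peak in each starved library. That count therefore does not set the 9 genes apart, and the matching share over all genes was not computed. A fed-only site was present at 8 of the 9 genes, and at 47.1% of 21887 protein-coding genes. Only 78.3% of those genes had any fed site, while all 9 had several, so the 2 shares are not on like terms. Per fed site, the fed-only share was the 20.4% against 29.1% given above. All 91 sites were called in fed 3, the longest list. No site of these genes was called in starved libraries alone, in whatever number of them. Over the genome 0.00% of sites were called in all 3 starved and no fed library. That narrower count leaves out sites called in 1 or 2 starved libraries alone.

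**Figure D1:**
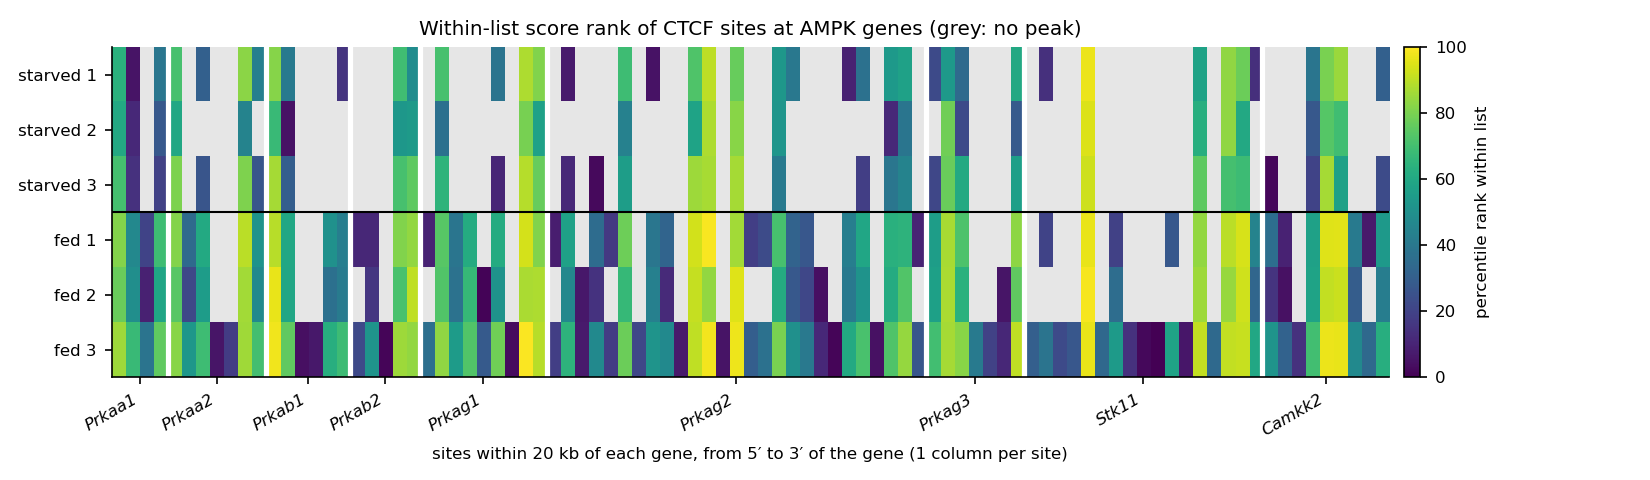
Percentile rank (colour, 0 to 100) of the authors' peak score within each list, for the 91 sites (columns, grouped by gene and ordered 5′ to 3′) in the 3 starved and 3 fed libraries (rows). Grey marks a site with no peak. Fed 3 has a peak at all 91 sites, and all 24 sites with a mean fed rank above 70 are filled in every starved row.

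The number of sites called per library followed the length of the lists. The starved libraries held 42, 29 and 38 of the sites and the fed libraries 64, 58 and 91. The mean was 36.3 ± 6.66 in starved and 71.0 ± 17.6 in fed livers (SD, n = 3 each), a ratio of 0.512. Over all sites of the genome the ratio was 0.463. Per 1000 sites of the same library the AMPK genes had 1.41, 1.25 and 1.32 sites in the starved and 1.17, 1.22 and 1.23 in the fed libraries. Those 2 ranges did not overlap, but the order of the groups turned with lists of equal length (23926 peaks each), where the AMPK genes had a mean of 31.7 sites in starved and 33.0 in fed libraries, a ratio of 0.96. By gene, the mean number in starved over that in fed libraries ran from 0.452 in Stk11 to 0.75 in Prkaa1. For 7 of the 9 genes every starved library held fewer sites than every fed library, as for 59.1% of the 18094 protein-coding genes with a site, and the 2 others were Prkag3 and Stk11.

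**Figure D2:**
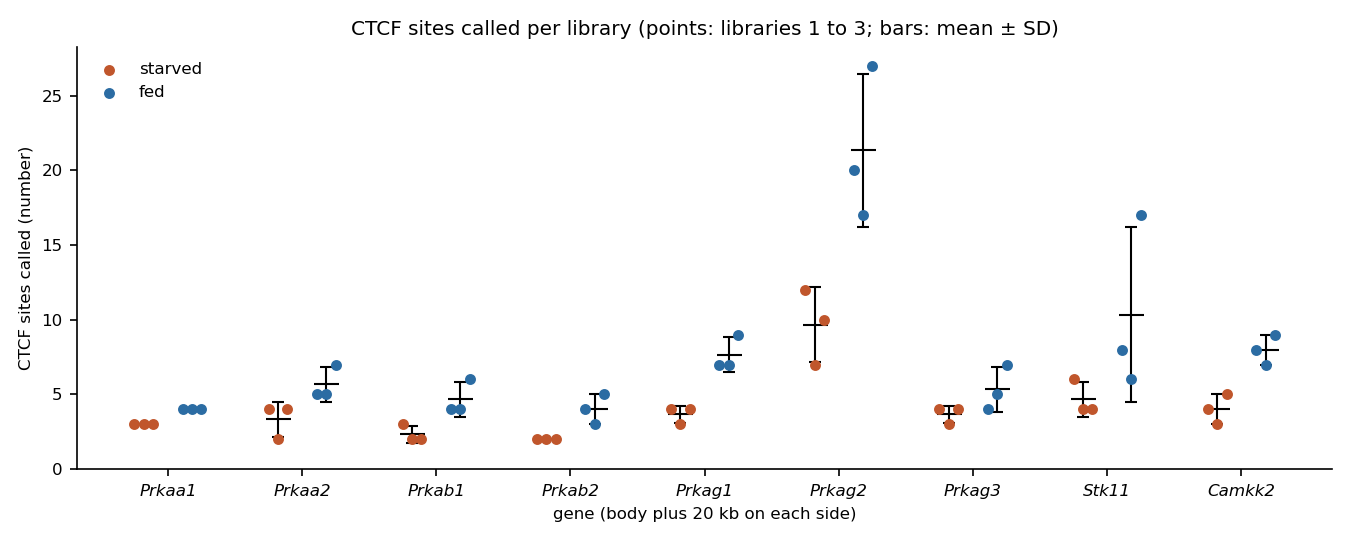
Number of CTCF sites called in each library (points) at each gene, body plus 20 kb on each side, with mean ± SD (bars, n = 3), starved left of fed. Prkag2 has the most sites, and at Stk11 fed 3 stands above the other fed libraries with 17 sites against 8 and 6.

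The fed sites were also dense compared with most genes. Their number per 100 kb of window ran from 4.16 at Prkaa2 to 10.9 at Stk11, against a median of 3.17 over 21887 protein-coding genes. All 9 genes lay above that median, between the 59.6th percentile of genes (Prkaa2) and the 94.5th (Stk11).

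The site that stood out was inside Prkag1, a gamma subunit gene. At chr15:98821344-98821804, 9.93 kb downstream of the gene start, fed 1, 2 and 3 had ranks of 61.6, 67.1 and 72.7 and authors' scores of 62.3, 87.1 and 105, and no starved library had a peak. Its mean fed rank of 67.1 was place 2 of 13072 fed-only sites. Of the genome's fed sites with a mean rank between 60 and 70, 1.37% (77 of 5616) had no starved peak. The other 10 fed-only sites of the AMPK genes had mean fed ranks from 15.2 to 50.05. Lists shortened to the best-scored 23926 peaks, the length of the shortest list, held the Prkag1 site in all 3 fed libraries and in no starved one. It was the 1 site of 31 in all 3 shortened fed lists of these genes to lack a starved peak, against 1.20% over the genome. Its ranks there were 9.85, 32.7 and 14.5 in fed 1, 2 and 3. Of the 13072 fed-only sites, 35 (0.268%) stayed fed-only in this way. These values were known when the genes were chosen.

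Prkag1 had another fed-only site closer to the gene start and a promoter site called in every library. The other fed-only site (chr15:98823293-98823940) had fed ranks of 39.0, 37.8 and 54.7. The promoter site (chr15:98830943-98831609, which overlaps the window printed above) had ranks of 70.9, 36.9 and 65.0 in starved and 74.1, 73.0 and 83.4 in fed libraries. Both fed-only sites thus lay in the gene body, between the promoter site and a group of sites beyond the 3′ end. In that group, chr15:98803743-98804756, in Ddn, which encodes dendrin, had ranks of 87.8, 79.6 and 88.9 in starved and 93.6, 87.3 and 99.5 in fed libraries. Another, chr15:98798865-98800167, was called in all 6 libraries, and chr15:98805080-98806139 in 2 starved and 3 fed libraries. Just upstream, a site in the neighbouring histone methyltransferase gene Kmt2d was called in 2 fed libraries.

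**Figure D3:**
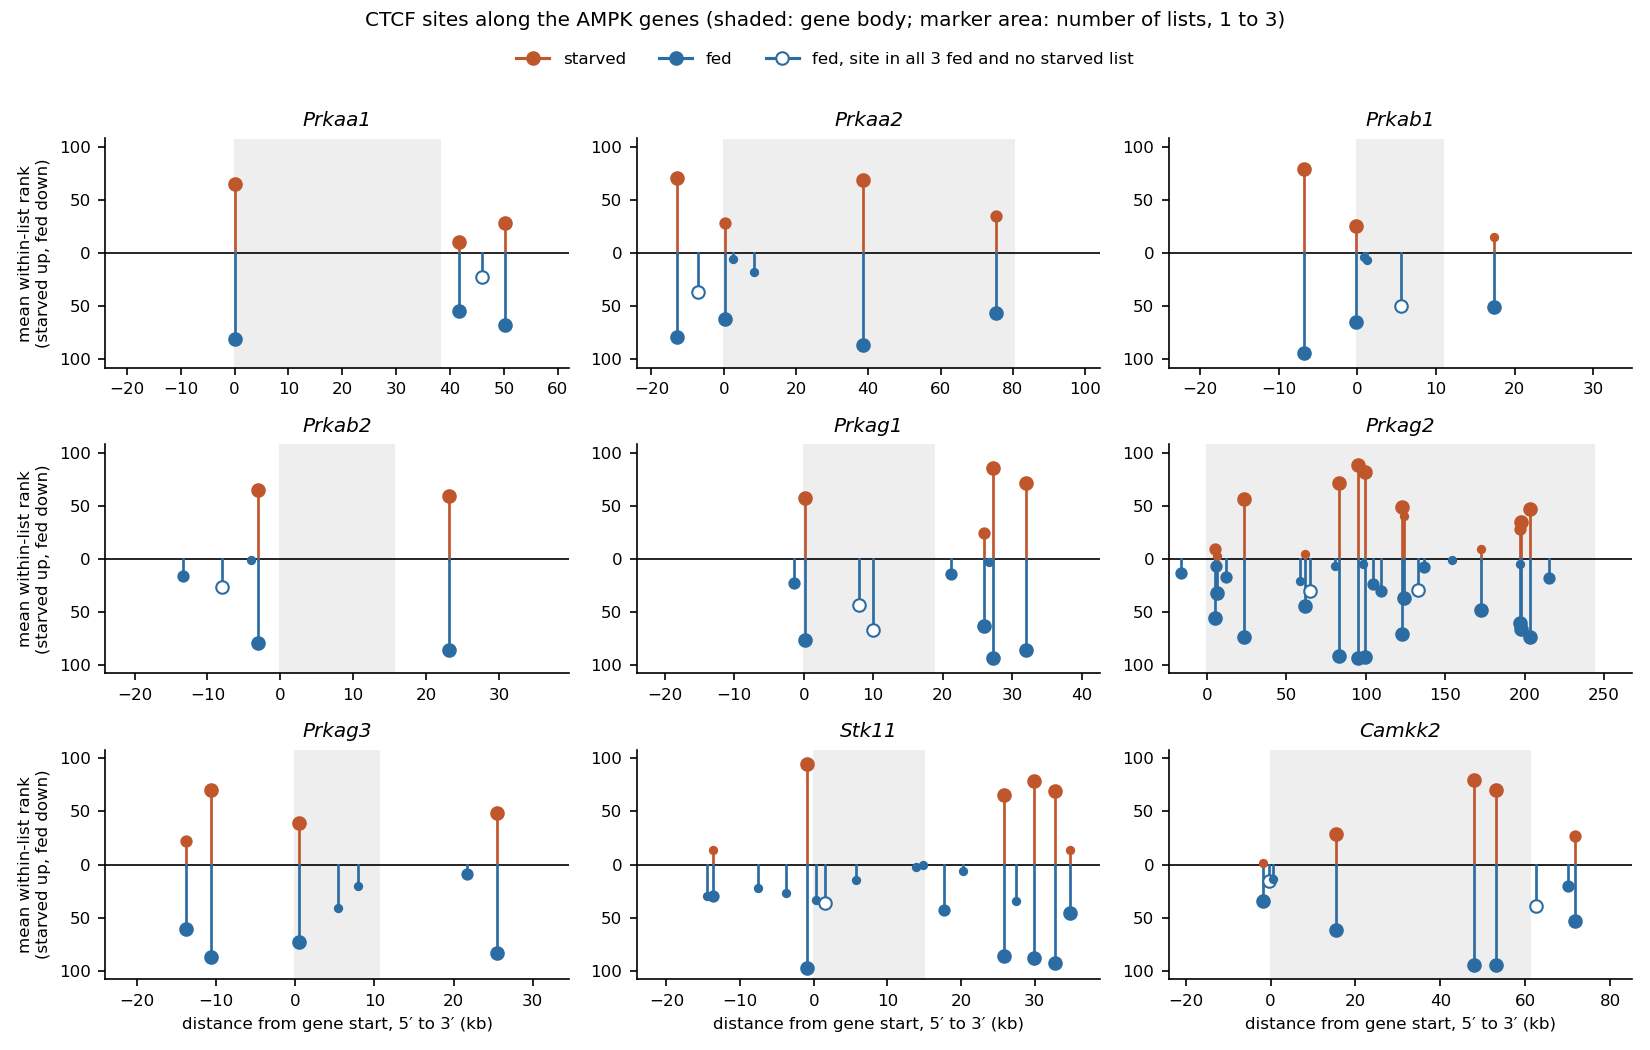
CTCF sites of each gene by the distance of the site's midpoint from the gene start (kb, 5′ to 3′; shaded, gene body), with the mean within-list rank in starved libraries upward and in fed libraries downward. Marker area gives the number of lists (1 to 3) and open markers are fed-only sites, of which Prkag1 has 2 inside the gene, the better at a mean fed rank of 67.1.

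The catalytic subunit genes each had a site at the promoter. Prkaa1, which encodes alpha 1, had 4 sites, and the best of them lay over its start (chr15:5143063-5144666) with ranks of 63.8, 60.2 and 70.4 in starved and 81.4, 77.3 and 85.2 in fed libraries. The 3 others lay beyond its 3′ end in Ttc33, and none lay in the rest of the gene body. Of these, chr15:5185099-5185929 was called in all 6 libraries, at 5.26, 11.6 and 14.3 in starved and 46.8, 49.3 and 67.9 in fed libraries. These full-list ranks measure no change. With lists of equal length the site was kept in 1 starved and 0 fed libraries. The fed-only site of Prkaa1 (chr15:5189685-5189999) had fed ranks of 20.3, 9.15 and 38.5.

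Prkaa2 encodes alpha 2. Its promoter site (chr4:105108822-105110041) was called in starved 1 and 3 at 30.8 and 26.3 and in the fed libraries at 60.8, 55.4 and 69.1. Starved 2, the shortest list, had no peak there. The best site of Prkaa2 lay in the middle of the gene (chr4:105070828-105071727), with 82.5, 44.7 and 80.8 in starved and 89.5, 86.1 and 85.7 in fed libraries. A site 12.88 kb upstream (chr4:105122213-105123339) had 71.0, 59.8 and 80.4 in starved and 81.3, 74.2 and 82.4 in fed libraries. Between it and the promoter was the fed-only site of the gene, at a mean fed rank of 36.3.

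The beta subunit genes differed in where their sites lay. Prkab1, for beta 1, had its best site 6.78 kb upstream (chr5:116030805-116031766), with 81.9, 67.9 and 86.6 in starved and 89.1, 96.7 and 98.0 in fed libraries. Its promoter site (chr5:116024433-116024961) was weaker, with 41.4, 4.83 and 29.8 in starved and 59.4, 59.0 and 75.5 in fed libraries. Starved 2 was the lowest starved library at both. Inside Prkab1, a fed-only site (chr5:116018786-116019211) had fed ranks of 50.5, 37.1 and 62.6, the highest fed-only mean after the site in Prkag1. Prkab2, for beta 2, had no site at all in its gene body. Its 2 sites called in all 6 libraries lay 3.11 kb upstream, within the flavin monooxygenase gene Fmo5, and beyond the 3′ end. The upstream site (chr3:97654781-97655422) had 69.5, 53.1 and 71.0 in starved and 81.2, 71.3 and 85.3 in fed libraries.

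Of the gamma subunit genes, Prkag2 is the longest gene of the family and held 27 sites, 15 of them fed sites. It encodes gamma 2, mutated in an inherited heart muscle disease in humans. A run of 3 sites within the gene carried its highest ranks. At chr5:25009930-25011918 the ranks were 90.0, 87.8 and 86.8 in starved and 98.9, 83.9 and 98.4 in fed libraries. At chr5:25006368-25007650 they were 76.6, 82.1 and 86.6 in starved and 86.0, 95.3 and 97.6 in fed libraries, and the groups overlapped at both. RefSeq gives 3 promoter windows for Prkag2, and 2 of them, the first and the last, overlapped a peak in starved 1 and in all 3 fed libraries. The middle one overlapped none. The site around the last start (chr5:24907855-24908797) was called in all 6 libraries, but the peaks of starved 2 and 3 did not reach the 300 bp window. The 2 fed-only sites of Prkag2 had mean fed ranks of 30.4 and 29.6.

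Prkag3 encodes gamma 3, known from skeletal muscle, and was the gene of the family with no fed-only site. Its promoter site (chr1:74748564-74749520) had ranks of 34.5, 22.6 and 60.8 in starved and 72.1, 63.8 and 82.4 in fed libraries. An upstream site in Wnt6, a signalling ligand gene, had 53.8, 78.5 and 77.1 in starved and 87.1, 87.3 and 86.5 in fed libraries (chr1:74759726-74760459). Downstream, a site in Cyp27a1, the sterol 27-hydroxylase gene of bile acid synthesis (chr1:74723533-74724469), had 60.4, 28.3 and 56.6 in starved and 83.2, 75.4 and 90.6 in fed libraries.

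The strongest site of all 9 genes belonged to Stk11, the gene of the kinase LKB1. It lay 0.98 kb upstream of the gene start (chr10:80114358-80115220) and had ranks of 97.0, 94.8 and 92.3 in starved and 96.7, 98.5 and 96.6 in fed libraries. The groups overlapped. Stk11 had 17 sites, the second highest number, but 11 of them were called in 1 or 2 fed libraries, and 3 sites called in all 6 libraries lay 25.87 to 32.7 kb downstream of its start in the neighbouring genes Atp5d, a subunit of the mitochondrial ATP synthase, and Midn. The fed-only site (chr10:80116846-80117857) lay inside Stk11 with fed ranks of 19.3, 35.9 and 54.5. One more downstream site (chr10:80149907-80151071) reached 772 bp into the 20 kb limit, with 1 starved and 3 fed peaks and a mean fed rank of 45.9. The nearest sites outside the limit lay 189 bp from that of Camkk2 and 384 bp from that of Prkag2, at mean fed ranks of 15.9 and 32.8, and neither had a starved peak.

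Camkk2 encodes the kinase that activates AMPK when calcium rises. Its 2 best sites lay deep in the gene. At chr5:122731112-122732243 the ranks were 79.8, 73.8 and 86.6 in starved and 95.0, 90.9 and 97.0 in fed libraries. At chr5:122725747-122726895, where Camkk2 meets P2rx4, the gene of an ATP-gated channel, they were 84.8, 69.2 and 57.3 in starved and 95.6, 92.1 and 96.5 in fed libraries. Around the start of Camkk2 lay weak sites, of which chr5:122779687-122780007 was fed-only at 9.64, 4.47 and 31.5, just outside the promoter window.

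Whether a fed site of an AMPK gene had starved peaks went with its fed rank. All 24 sites with a mean fed rank above 70 were called in all 3 starved libraries, against 99.1% of such sites over the genome. Between 60 and 70 it was 4 of 9 sites (44.4%), against 66.9% over the genome, and between 50 and 60 it was 1 of 6 (16.7%), against 17.9%. Sites with no starved peak made up 5 of the 11 sites between 30 and 50 (45.5%), against 64.5% over the genome, and all 4 sites below 30, against 89.0%. The site inside Prkag1 was the 1 site above 60 without a starved peak, and it was known when the genes were chosen.

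**Figure D4:**
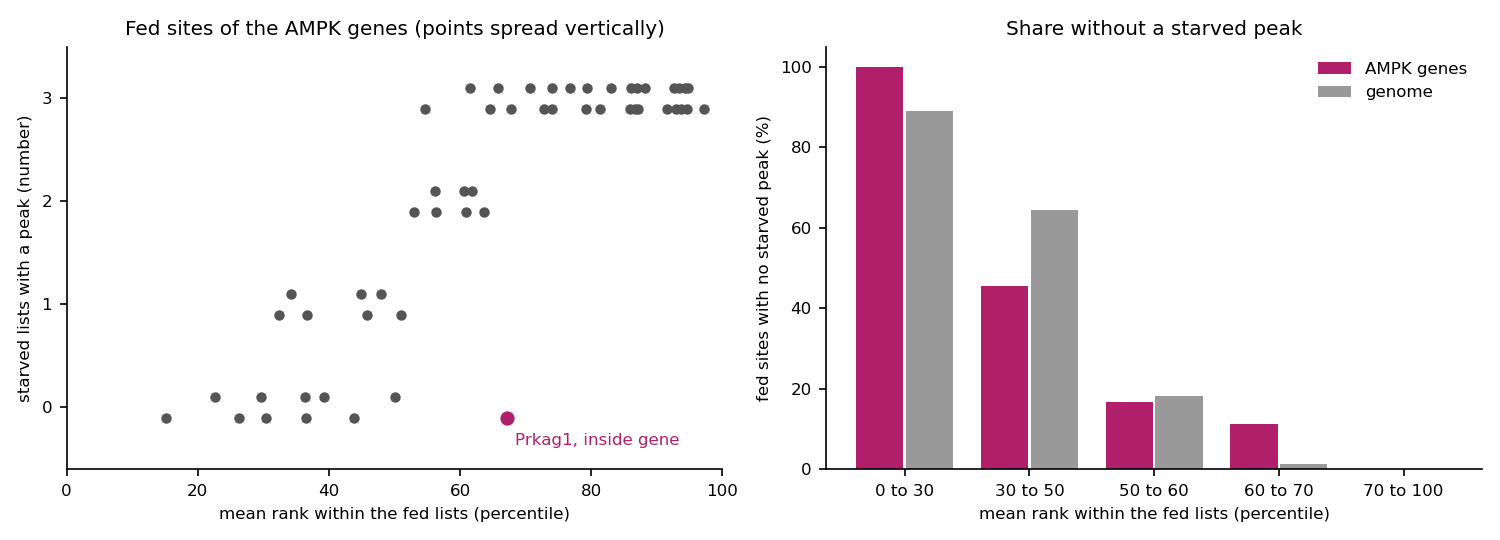
Left, mean within-list fed rank (percentile) of the 54 fed sites against the number of starved lists with a peak, with the site inside Prkag1 in colour at 67.1 and 0. Right, fed sites lacking a starved peak (%) by fed rank, for the AMPK genes and the genome; between 60 and 70 it was 11.1% (1 of 9 sites) and 1.37%.

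With lists of equal length, starved and fed ranks come from the same number of peaks, and most AMPK sites overlapped between the groups. The lowest scores kept still differed, at 10.9, 2.08 and 10.7 in starved 1, 2 and 3. In fed 1, 2 and 3 they were 49.8, 41.6 and 78.7, so equal length does not make the lists alike in score. Of the 26 sites of these genes in all 6 shortened lists, 3 had all starved ranks below all fed ranks (7.76% of 19291 sites over the genome), and 1 had all starved ranks above (7.26%). The median difference, starved minus fed, was −0.981 percentile points for the 26 sites and −0.204 for the genome. By an exact permutation test, two-sided and over all 20 labellings, 0 sites of the genome had an unadjusted p under 0.05, because 0.1 is the smallest p that 3 libraries against 3 allow, and the lowest Benjamini-Hochberg adjusted p was 0.666.

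The 4 sites whose groups did not overlap were 15.4% of the 26, near the 15.0% over the genome. Their number therefore does not set the AMPK genes apart, and their values are given as a description. The 3 lower sites were at Camkk2, Prkag3 and Stk11. The Camkk2 site next to P2rx4 had equal-length ranks of 80.5, 69.2 and 46.6 in starved and 89.6, 83.8 and 89.0 in fed libraries, a mean difference of −22.0. The Prkag3 site in Cyp27a1 had 49.1, 28.3 and 45.9 in starved and 60.6, 49.6 and 70.6 in fed libraries (−19.1), and its highest starved rank lay within 1 point of its lowest fed rank. The Stk11 site in Midn (chr10:80147660-80149267) had 71.4, 60.3 and 60.7 in starved and 85.5, 85.1 and 73.2 in fed libraries (−17.1). The higher site was the one upstream of Prkaa2, with 62.8, 59.8 and 75.6 in starved and 56.3, 47.2 and 44.8 in fed libraries, a mean difference of 16.7. The 4 promoter sites called over the windows in every library all overlapped between the groups, with differences from −5.21 at Prkag3 to 7.93 at Prkag1.

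**Figure D5:**
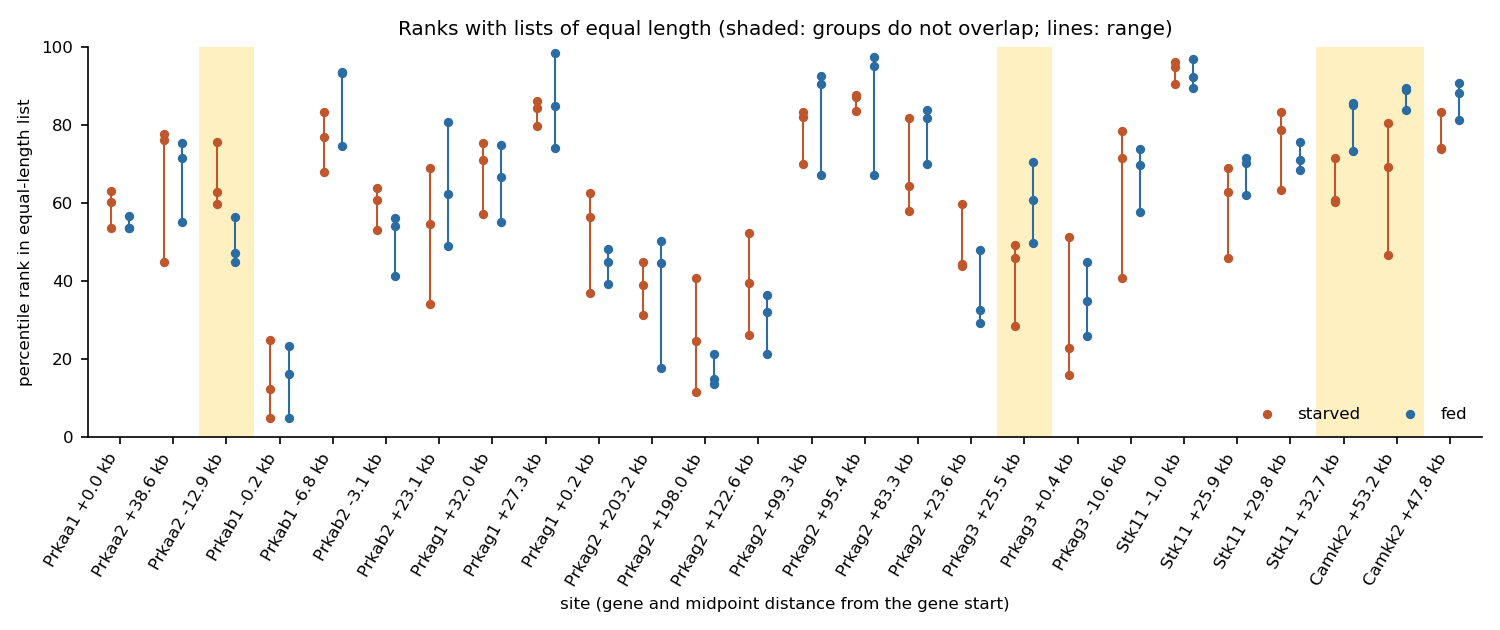
Percentile rank of the 26 sites found in all 6 lists of equal length (23926 peaks each), starved left of fed, with points for libraries and lines for the range. Shading marks the 4 sites whose groups do not overlap (15.4%, and 15.0% over the genome). Of these, the site upstream of Prkaa2 is higher and those of Prkag3, Stk11 and Camkk2 are lower in starved libraries.

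Peaks at the shared sites were narrower in starved livers, as over the genome. At the 29 sites of the AMPK genes called in all 6 libraries, the median width was 473, 252 and 415 bp in the starved and 755, 665 and 931 bp in the fed libraries. The groups did not overlap. The starved to fed ratio of the mean was 0.485, and it was 0.477 for all sites of the genome called in every library.

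Of the wider AMPK pathway, 45 genes in 5 lists had 256 fed sites, of which 117 were called in all 3 starved libraries, 58 in 1 or 2 and 81 in none (31.6%, near the 29.1% of the genome's fed sites). The fed-only share was 23.8% (15 of 63 sites) for AMPK substrates of lipid and sterol metabolism and 28.1% (16 of 57) for those of glucose metabolism. It was 33.3% for AMPK-related kinases (19 of 57) and for partners of LKB1 and other activating kinases (5 of 15), and 40.6% (26 of 64) for substrates and partners in growth, autophagy and mitochondria. The lists were not tested against one another or the genome. The fed-only sites of highest fed rank lay at Map3k7, the gene of TAK1, an upstream kinase (55.7), Ppargc1a, a coactivator of gluconeogenesis (54.1), Tfeb, a transcription factor of lysosome genes (53.5), Mark2, a kinase activated by LKB1 (52.6), Mff, a mitochondrial fission factor (52.6), Acaca, an acetyl-CoA carboxylase (51.0), Mlxipl, the gene of the glucose sensor ChREBP (48.0), and Srebf2, the activator of sterol synthesis (47.6). All of these mean fed ranks were below that of the site inside Prkag1. That site had place 2 of 13072 fed-only sites and was known when the genes were chosen, so this order is no separate result.

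At equal length, 99 sites of these 45 genes were in all 6 lists. Of them, 12 had all starved ranks below all fed ranks (12.1%, and 7.76% over the genome) and 9 had all of them above (9.09%, and 7.26%). Acaca, whose enzyme AMPK phosphorylates and blocks, had the greatest difference, at a site (chr11:84179058-84179616) with ranks of 56.6, 60.7 and 45.1 in starved and 12.5, 23.0 and 28.6 in fed libraries. Rptor, the mTORC1 subunit raptor, had a site at 59.8, 16.5 and 40.0 in starved and 63.2, 75.7 and 67.1 in fed libraries. The next were at Tbc1d4, a Rab GTPase-activating protein of glucose uptake, with a mean difference of −25.4, and at Mlycd, malonyl-CoA decarboxylase, with −25.3.

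The gene most like each member was found from the best within-list rank in the 6 libraries, by the Euclidean distance between the 6 values, among protein-coding genes sharing no site with it. It was Ecd for Prkaa1 (distance 5.29), Lsm2 for Prkaa2 (3.05), M6pr for Prkab1 (4.55), Sipa1l2 for Prkab2 (5.57) and Spred1 for Prkag1 (3.72). For Prkag2 it was Ldc1 (2.27), for Prkag3 Plxnc1 (5.76), for Stk11 Zfp523 (2.52) and for Camkk2 Gm884 (3.16). The distances are in percentile points and are a description with no test.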

How the data were processed

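The data were 6 lists of CTCF peaks, 1 per ChIP library, with a position and a score per peak. The authors' score is deposited without its scale. The submitters' processing notes name the mm10 build and, without their roles, HOMER, MACS2, BWA 0.7.5a, bedtools 2.17, SAMtools and FastQC. How inputs and duplicate reads were handled is not known from the labels. Groups came from the sample titles.

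Peaks were merged at 1 bp of overlap, ranked within each list, and assigned to a gene within 20 kb of its body (RefSeq, GRCm38.p6, positions counted from 1). All 54 genes of the lists matched by symbol. Ranks were compared after each list was shortened to its 23926 best-scored peaks. Software was scipy 1.17.1, numpy 2.4.6, pandas 2.3.3, matplotlib 3.10.9 and Python 3.11.15, and merging and ranking were tested on simulated data.

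The members and lists were chosen with earlier results of these data known. Named were all members, pathway genes with the highest-ranked fed-only sites (at most 8) or the greatest differences at equal length (at most 4), the gene most like each member, and genes at printed sites. Promoter sequences are printed for the 4 genes with a peak in all 6 libraries and for Stk11, fewer than the rule allowed. Alternatives were other windows, merging within 500 bp, peaks of 200 bp, a score limit of 30.4 (the median), equal length, a fed site in at least 2 libraries, a promoter distance of 1 kb, leaving out each library, and a replicate block.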

Additional observations from a re-analysis of the deposited data

How the results depend on the processing

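Promoter peaks in every library held for 4 genes, for 6 with peaks within 1 kb of the start, and for 4 to 5 when 1 library was left out. The share over all genes was not computed for these alternatives. The share given for the 300 bp window cannot be set beside them. The 11 fed-only sites of 54 fed sites became 6 of 29 in the gene body alone, 1 of 31 with lists of equal length, which leaves the site inside Prkag1, and 24 of 68 with fed sites called in at least 2 libraries. Leaving out 1 library gave 11 to 20, the 20 without fed 2, the shortest fed list. The share was below that of the genome in each of these settings (35.3% against 41.6% with at least 2 libraries) except at equal length, with 3.23% against 1.20%. The 3.23% is the Prkag1 site alone, which was known when the genes were chosen. The settings draw on overlapping sets of sites and are not independent of one another. Fed sites had a median fed rank of 65.2 at the AMPK genes and 61.0 over the genome, and its part in the share was not tested. The starved to fed ratio of sites per library was 0.512, between 0.469 and 0.596 with 1 library left out, and 0.96 with lists of equal length. The 4 sites whose equal-length ranks did not overlap (15.4%, and 15.0% over the genome) became 1 of 11 with lists of 11963 peaks (9.09%, and 12.7%). With 1 library left out, where fewer values have to separate, they became 5 to 9, among them 8 without starved 2 (29.6%, and 26.4% over the genome), 9 without starved 3 (33.3%, and 24.7%) and 8 without fed 1 (29.6%, and 26.0%). Deviations of equal-length ranks from the group mean correlated at 0.01, −0.03 and 0.01 between same-numbered libraries. Ranking in lists of equal length removes differences that affect a whole library. These values therefore cannot show whether same-numbered libraries were handled together. The replicate block cannot change the 11 fed-only sites, because a fed-only site is fed-only in every pair of libraries by definition. With it, 8 of 26 sites (5 lower, 3 higher) had 1 sign in all pairs at equal length, 30.8% against 31.0% over the genome. The read depth behind each list is unknown, so a site without a starved peak may have been below the limit of the call.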
